A study of Macaca fascicularis and Mus musculus with 492 samples.

Results

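The retinoid genes described here are 3: ALDH1A1, an enzyme that oxidises retinal to retinoic acid, and CRABP1 and CRABP2, the cellular retinoic acid binding proteins. They are 3 of the 28797 monkey genes and, under the same names, 3 of the 26219 mouse genes in the deposited tables. They were chosen by their measured levels in these data: ALDH1A1 for its level in hypoblast, the CRABP genes for their levels in late epiblast and gastrulating cells. Their levels are therefore given as a description, without tests. In the monkey table the row used for ALDH1A1 carries the name LOC101865761 and was matched to the symbol by its gene ID, 101865761. CRABP1 (gene ID 102142773) and CRABP2 (gene ID 102136379) are named as such. In mouse (GRCm38/mm10, GENCODE vM21) Crabp2 lies at chr3:87948666-87953376, Crabp1 at chr9:54764748-54773110 and Aldh1a1 at chr19:20492715-20643465, all on the plus strand. No monkey coordinates are given because the annotation at hand is of another build than the files.

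Retinoic acid is made from vitamin A by successive oxidations: alcohol and retinol dehydrogenases turn retinol into retinal, and the ALDH1A enzymes turn retinal into retinoic acid. CRABP2 carries retinoic acid to its nuclear receptors (RARs, paired with RXRs), FABP5 can carry it to another receptor, and CRABP1 is held to bind it in the cytoplasm. CYP26 enzymes break it down, so the level that a cell sees depends on both source and sink. In the embryo it patterns the trunk and hindbrain and induces HOX genes.

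The assay, SC3-seq, reads transcripts at their 3-prime ends from cDNA amplified cell by cell. The 421 monkey cells were 390 cells of cynomolgus embryos (43, 35, 95 and 20 cells on E06, E07, E08 and E09, then 46, 62, 36 and 53 cells on E13, E14, E16 and E17), and 31 embryonic stem cells (ESCs): CMK6 on mouse feeders (14), CMK6 feeder-free (9) and CMK9 on feeders (8). The 71 mouse cells were C57BL/6 embryo cells of E5.5 (25) and E6.5 (24), ESCs of the line BVSC R8 in 2i and LIF (10), and epiblast-like cells (EpiLCs) induced from that line with activin A, bFGF and KSR (12). Early monkey embryos were dissociated whole, whereas after implantation a fragment with epiblast, amnion, hypoblast and yolk sac endoderm was dissected. The mouse E6.5 epiblast was only its proximal part. The labels name no embryo, so a class of cells on 1 day, or 1 ESC culture, was the unit of comparison (mean of log2(RPM + 1) over at least 5 cells), and each mouse stage or culture is 1 sample. Monkey cells had a median of 1879413 reads (166753 to 4491535), with a median per day from 912251 at E17 to 2050087 at E09.

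Cell classes were rebuilt by clustering without the retinoid genes. The 54 hypoblast-like cells (E07, E08, E09) had all 10 hypoblast and endoderm markers elevated, the 140 epiblast-like cells 7 of 8 epiblast markers in each of their 3 clusters, and the 30 gastrulating-like cells 7 of 9 gastrulation markers (T, MIXL1, EOMES, SP5, LHX1, CER1 and GSC) but also 5 of the 10 hypoblast and endoderm markers. A cluster led by SPP1, T and HAS2 (cluster 3, 17 cells of E13 and E14) stayed unnamed, with 4 of 9 gastrulation and 4 of 8 epiblast markers. So did a cluster of 32 cells, 31 of them of E06, led by DPRX and SPIC (cluster 6). Further classes were trophectoderm-like (84 cells) and extraembryonic-mesenchyme-like (33 cells).

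ALDH1A1, the synthesis gene, was high in the hypoblast-like cells on all of their 3 days and low in the other classes of those days. At E07 its level in hypoblast-like cells ranged from 0 to 408 RPM with a median of 157 RPM (10 cells). At E08 the range was 0 to 1775 RPM and the median 248 RPM (37 cells), and at E09 0 to 468 RPM with a median of 78 RPM (7 cells). Reads of ALDH1A1 were found in 8 of 10, 35 of 37 and 6 of 7 of these cells. The share at E08 was 94.6% (95% exact Clopper-Pearson interval 81.8% to 99.3%). Mean levels were 5.30, 7.23 and 5.66 on the log2(RPM + 1) scale, against 0.17, 1.21 and 0.11 in the epiblast-like cells of the same days and 0.23, 0.93 and 0.28 in the trophectoderm-like cells. The difference from epiblast-like cells was 5.13, 6.02 and 5.55, a mean of 5.56 (SD 0.45, n = 3 days). Of all 9681 genes compared, 7.48% were at least 2-fold higher in hypoblast-like cells on each day; ALDH1A1 was chosen on this contrast.

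**Figure D1:**
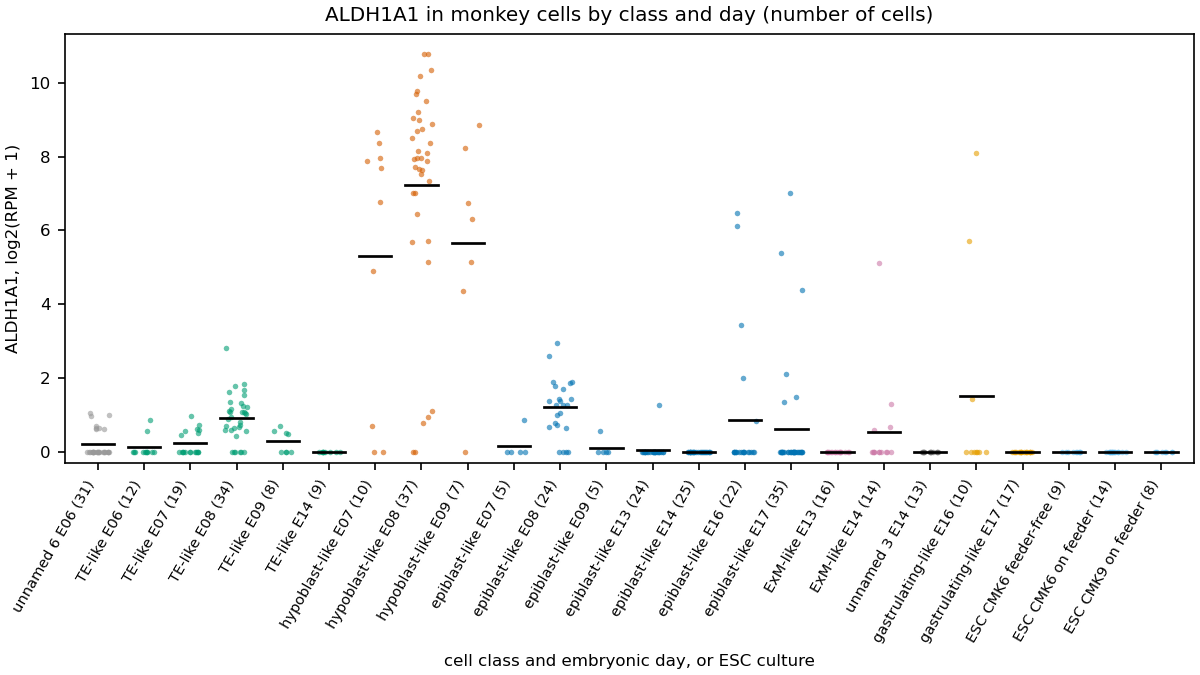
ALDH1A1 in single monkey cells: each point is 1 cell, the black line is the mean of the class and day, the y axis is log2(RPM + 1) and the x axis names the class, day and number of cells (TE, trophectoderm; ExM, extraembryonic mesenchyme). Hypoblast-like means lie at 5.30 to 7.23 with a few cells at or near 0, most other cells lie near 0, and a few E14, E16 and E17 cells of other classes reach 4 to 8.

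The hypoblast-like cells did not form 1 continuous range. In 45 of 54 cells ALDH1A1 stood at 19.4 RPM or above, and in the other 9 at 1.15 RPM or below, with no cell between. Finer clustering (Leiden resolution 1.5) divided the class into 42 cells with a mean of 7.52 (SD 2.50 over cells) and 12 cells with a mean of 3.69 (SD 3.53). The 9 low cells fell 3 in the larger and 6 in the smaller cluster. Both clusters had a median of 10 of 10 hypoblast and endoderm markers at 10 RPM or more, and the smaller had fewer reads per cell (median 1598356 against 2190138). At E08, where both had at least 5 cells, their means were 7.98 (30 cells) and 4.02 (7 cells). The part that depth plays in this was not tested.

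Outside the hypoblast-like class, ALDH1A1 reads before implantation stayed at a trace. At E08, 48 of the 58 other cells (82.8%) had a read, with a median of 1.11 RPM and a highest value of 6.72 RPM, beside a mean of 407 RPM in the hypoblast-like cells of that day. At E07 it was 9 of 25 cells and at E09 5 of 13, with highest values of 0.961 and 0.62 RPM. None of these cells reached 10 RPM. When cells were thinned to 500000 reads, the E08 share went from 83.3% to 41.7% of epiblast-like cells and from 82.4% to 52.9% of trophectoderm-like cells. Of the 24 epiblast-like E08 cells, 23 share 1 title code (MS02, whose meaning the labels do not give), as do 36 of the 37 hypoblast-like ones. Whether these trace reads come from the cells themselves was not tested.

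After implantation no cluster qualified as hypoblast-like, yet 10 of the 197 cells of E13 to E17 held ALDH1A1 at 10 RPM or more. They were 5 epiblast-like cells (2 of E16, 3 of E17), 4 gastrulating-like cells (1 of E13, 1 of E14, 2 of E16) and 1 extraembryonic-mesenchyme-like cell of E14, with values from 19.8 to 275 RPM. Of the 10, 6 had at least 7 of the 10 hypoblast and endoderm markers at 10 RPM or more, 2 had 5 and 2 had 1. Read the other way, ALDH1A1 reached 10 RPM in 6 of the 13 late cells with 7 to 10 such markers, in 2 of 58 cells with 4 to 6 markers and in 2 of 126 cells with 0 to 3. The highest cell, gastrulating-like of E16 with 275 RPM of ALDH1A1, had 994 RPM of GATA4, 160 RPM of SOX17 and 10.1 RPM of the pluripotency factor POU5F1. Among the 6 cells with at least 7 markers, the other gastrulating-like ones had 1.12 and 6.77 RPM of POU5F1. The epiblast-like ones had 7, 10 and 10 markers together with 1233, 1244 and 1040 RPM of POU5F1. The cells with 1 marker, COL4A1, were epiblast-like with 68.8 RPM (E16) and 19.8 RPM (E17) of ALDH1A1, and had 2.00 and 1.10 RPM of GATA4, 2.40 and 0 RPM of SOX17 and 1708 and 1831 RPM of POU5F1. Finer clustering moved 6 late cells from the gastrulating-like to a hypoblast-like cluster, 3 of them with 91.7, 119 and 275 RPM of ALDH1A1 and 3 with none. Without those 6 cells the gastrulating-like mean of ALDH1A1 went from 0.96 to 0.30 over all days, and from 1.52 to 0.89 at E16. Of the 10 cells, 6 carry the title code MS09. Without that code the E16 mean was 0.36 in gastrulating-like cells, and 0.05 against 0.86 in epiblast-like cells. No ALDH1A1 read was found in any of the 31 monkey ESCs, which allows shares of up to 33.3% (CMK6 feeder-free), 21.4% (CMK6 on feeders) and 37.5% (CMK9 on feeders).

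CRABP2, the binding protein that delivers retinoic acid to its receptors, was scarce before implantation and abundant in embryonic cells after it. In epiblast-like cells the mean level was 2.66 at E07, 0.96 at E08 and 1.26 at E09, and then 5.95, 6.89, 8.05 and 7.26 on E13, E14, E16 and E17. The late days averaged 7.04 ± 0.87 (SD, n = 4 days) against 1.62 ± 0.90 (SD, n = 3 days) on the early days, a difference of 5.41. Of all 9897 genes tested between these days, 13.3% were called higher, and the CRABP genes were chosen on this contrast. In single cells the medians were 11.6, 0 and 0 RPM on the early days and 83.6, 130, 269 and 154 RPM on the late days. At 10 RPM or more, CRABP2 was present in 103 of 106 late but 6 of 34 early epiblast-like cells. The early cells all fell in cluster 9 (34 cells), which also had 3 of 8 trophectoderm markers elevated (TFAP2C, KRT18 and DAB2), and the late cells in clusters 8 (E13 and E14, 49 cells) and 4 (E16 and E17, 57 cells), so day and cluster cannot be told apart. Only 1 title code (MS08) covers both periods. Within it, 2 cells of E07 averaged 2.14 and 25 cells of E14 and E16 averaged 7.44, a difference of 5.30. Codes differed within a day as well: at E14 the mean was 6.46 in MS08 (9 cells), 5.16 in MS10 (4 cells) and 7.78 in MS61 (12 cells).

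The late expression of CRABP2 was not limited to the epiblast-like and gastrulating-like cells. Gastrulating-like cells stood at 8.87 (E16) and 7.84 (E17), above the epiblast-like cells of the same day by 0.82 and 0.58. Late epiblast-like days spread by 0.87, but this is a spread between days and does not measure the error of a same-day difference. The unnamed cluster 3 had 8.93 at E14, 2.04 above the epiblast-like cells of that day, but 12 of its 13 cells carry the title code MS13, which no epiblast-like cell of E14 does, so class and code cannot be told apart. The 4 cells of cluster 3 at E13 had 5.69, beside 5.95 in the epiblast-like cells. Extraembryonic-mesenchyme-like cells had 6.36 at E13 and 6.89 at E14, within 0.41 and 0.00476 of the epiblast-like cells. At E14 they share no title code with the epiblast-like cells, and nor do the trophectoderm-like cells. Trophectoderm-like cells of E14 had 0.56, with a highest cell of 1.41 RPM, below the lowest E14 cell of the epiblast-like class (21 RPM), the extraembryonic-mesenchyme-like class (47.1 RPM) and cluster 3 (229 RPM). The 3 ESC cultures had 7.12 (CMK6 feeder-free), 7.56 (CMK6 on feeders) and 8.04 (CMK9 on feeders). These overlap with the late epiblast-like days, and their mean of 7.57 lay 0.53 above, beside a spread of 0.74. Without E13 the difference was 0.17, and without E16 it was 0.87 beside a spread of 0.58. Hypoblast-like cells, found only before implantation, had 0, 0.39 and 1.15 at E07, E08 and E09, beside 2.66, 0.96 and 1.26 in epiblast-like cells. The 6 late cells of the finer hypoblast-like cluster had 19.7 to 459 RPM. Lineage and day therefore cannot be told apart when the hypoblast-like class is set against late units. In order of mean level, cluster 3 of E14 (8.93) and gastrulating-like cells of E16 (8.87) came first, followed by epiblast-like cells of E16 (8.05), CMK9 (8.04) and gastrulating-like cells of E17 (7.84). From there down to the epiblast-like cells of E13 (5.95), each step was smaller than the SD of the late days, and the next unit was the epiblast-like class of E07 (2.66).

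**Figure D2:**
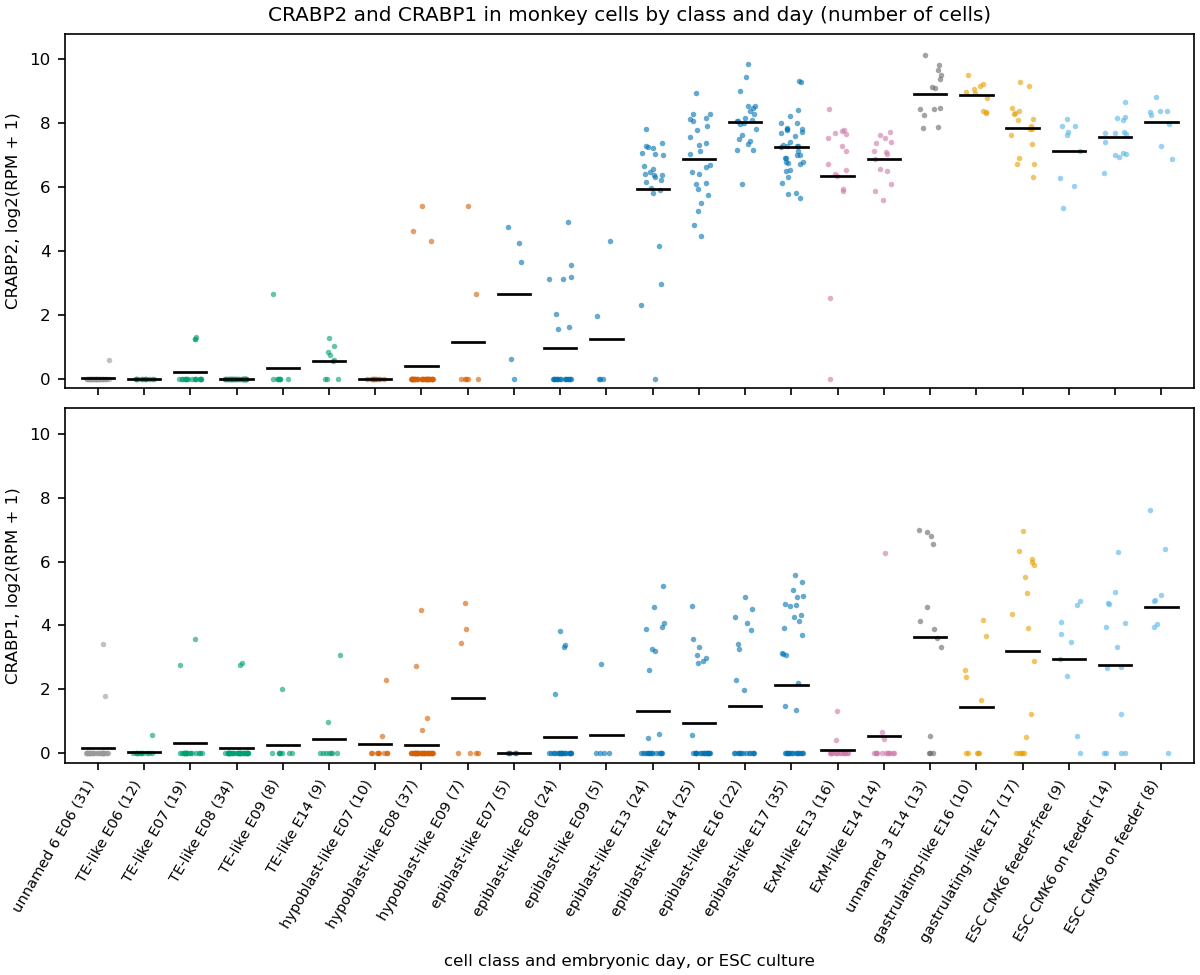
CRABP2 (top) and CRABP1 (bottom) in single monkey cells: each point is 1 cell, the black line is the mean, the y axes are log2(RPM + 1) on the same scale and the x axis names the class, day or culture and the number of cells. CRABP2 is near 0 in most cells up to E09 and averages 5.95 to 8.93 from E13 on except in trophectoderm-like cells. CRABP1 is uneven between cells, with some at 0 in every unit.

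CRABP1, the second binding protein, was found in only some of the late epiblast-like cells and in none of the 5 of E07, with means that were higher on late than on early epiblast-like days. Levels of the 2 genes are not compared with each other, since RPM is not scaled by length. In epiblast-like cells CRABP1 averaged 0, 0.52 and 0.56 on the early days and 1.33, 0.95, 1.48 and 2.13 on the late days, a difference of 1.11 between means of 1.47 ± 0.49 (SD, n = 4 days) and 0.36 ± 0.31 (SD, n = 3 days). The difference lies near the floor and was 0.39 with a pseudocount of 10. Only E17 reached a mean of 2, so CRABP1 did not pass the filter on low values for the tests between these days. Within title code MS08 the means were 0 at E07 (2 cells) and 1.13 at E14 and E16 (25 cells). The share of cells with a read was 54.3% at E17 (19 of 35, interval 36.6% to 71.2%) and stayed at 54.5% after thinning to 500000 reads. At E17 the level differed between title codes, from 0.38 in MS61 (8 cells) through 2.04 in MS10 (18 cells) to 3.77 in MS11 (8 cells), with 4.61 in the 1 cell of MS13, a range wider than that between days. Gastrulating-like cells had 1.45 at E16, equal to the epiblast-like cells within 0.03, and 3.22 at E17, 1.09 above them. None of the gastrulating-like cells of E17 carries MS61, the lowest epiblast-like code. Within a code, gastrulating-like and epiblast-like means at E17 were 2.99 (11 cells) and 2.04 in MS10, and 3.72 (4 cells) and 3.77 in MS11. In MS13 they were 3.48 (2 cells) and 4.61 (1 cell). Cluster 3 at E14, nearly all of title code MS13, had 3.64 and a highest cell of 125 RPM.

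Among ESC and epiblast-like units, the ESC cultures held the most CRABP1: 2.96 (CMK6 feeder-free), 2.76 (CMK6 on feeders) and 4.56 (CMK9 on feeders). Their mean of 3.43 ± 0.99 (SD, n = 3 cultures) was 1.96 above that of the 4 late epiblast-like days. In this comparison 7.14% of 9880 tested genes were called higher in ESCs. Only title code MS11 covers both a culture and late epiblast-like cells, and within it the order was reversed. CMK6 feeder-free cells averaged 2.96 (9 cells) and epiblast-like cells of E17 3.77 (8 cells). Extraembryonic-mesenchyme-like cells, which were near the epiblast-like level of CRABP2, had 0.11 and 0.53 of CRABP1 at E13 and E14. At E14 they share no title code with the epiblast-like cells, so class and code cannot be told apart. The few later cells of this class had 2.09 at E16 (2 cells) and 4.85 at E17 (1 cell). Before implantation, the hypoblast-like cells of E09 were the highest unit with 1.72, resting on 3 of 7 cells with a read. By mean level the order was CMK9 on feeders (4.56), cluster 3 of E14 (3.64), gastrulating-like cells of E17 (3.22), CMK6 feeder-free (2.96), CMK6 on feeders (2.76) and epiblast-like cells of E17 (2.13). Each step was smaller than the SD of 0.99 between ESC cultures.

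CRABP1 at 10 RPM or more was found in 49 of the 197 late cells, 48 of which also held CRABP2 at that level: 25 of 25 late epiblast-like, 11 of 11 gastrulating-like, 8 of 8 cluster 3, 3 of 3 extraembryonic-mesenchyme-like and 1 of 2 trophectoderm-like cells. In the ESCs it was 18 of 18, with CRABP2 at that level in 31 of 31 cells. In the late classes, in the same order, CRABP2 reached it in 103 of 106, 30 of 30, 17 of 17, 31 of 33 and 1 of 11 cells. Outside the trophectoderm-like class the overlap was thus nearly fixed in advance. In the hypoblast-like cells of E07 to E09, 42 of the 45 cells with 10 RPM or more of ALDH1A1 lacked CRABP2 at that level, as did all but 4 of the 54 hypoblast-like cells. Each of the 10 late cells with ALDH1A1 had CRABP2 as well, at 90.6 to 488 RPM, in a population in which 182 of 197 cells did.

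Genes whose unit means followed each member most closely were found over the 24 monkey units among 11727 genes. For ALDH1A1 they included BMP6 (Pearson r = 0.969), NRG1 (0.961), RGAG1 (0.956) and KCNJ13 (0.955). For CRABP2 they were ARHGEF40 (0.979), TCF4 (0.969), MEX3A (0.968), ZNF618 (0.95) and MSANTD3 (0.948). For CRABP1 the closest were PDE1B (0.915), PCK2 (0.899), PPOX (0.895), PTN (0.885) and JAM2 (0.878). The units share classes, days and title codes, so these values describe likeness only.

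The rest of the pathway was followed through a list of 56 other retinoid genes, 52 of them in the monkey table. Here 16 of the 52 stayed below a mean of 2 in every unit, among them the plasma retinol carrier RBP4 and the breakdown enzymes CYP26B1 and CYP26C1. Between hypoblast-like and epiblast-like cells, 17 list genes passed the filter on low values. Only NR2F2, an orphan nuclear receptor, was at least 2-fold higher in hypoblast-like cells on each of the 3 days, by 2.46, 1.47 and 3.88, where 7.48% of all genes were. MEIS2, a homeobox gene, and STRA6, the cell surface receptor for retinol uptake, were at least 2-fold lower on each day, by 3.0 and 3.16 on average, where 8.04% of all genes were. NR2F2 passed the filter only through the hypoblast-like cells, and MEIS2 and STRA6 only through the epiblast-like cells. STRA6 had 0, 0.08 and 0 in the hypoblast-like cells of E07, E08 and E09, and 2.01, 3.20 and 4.35 in the epiblast-like cells. ALDH1A2, the retinal dehydrogenase of mesoderm, chosen here after its values were seen, showed another distribution than ALDH1A1. It averaged 5.57 and 4.40 in extraembryonic-mesenchyme-like cells of E13 and E14. Gastrulating-like cells had 2.71 at E16 and 0.64 at E17, and hypoblast-like and epiblast-like units no more than 0.05 and 0.29.

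**Figure D3:**
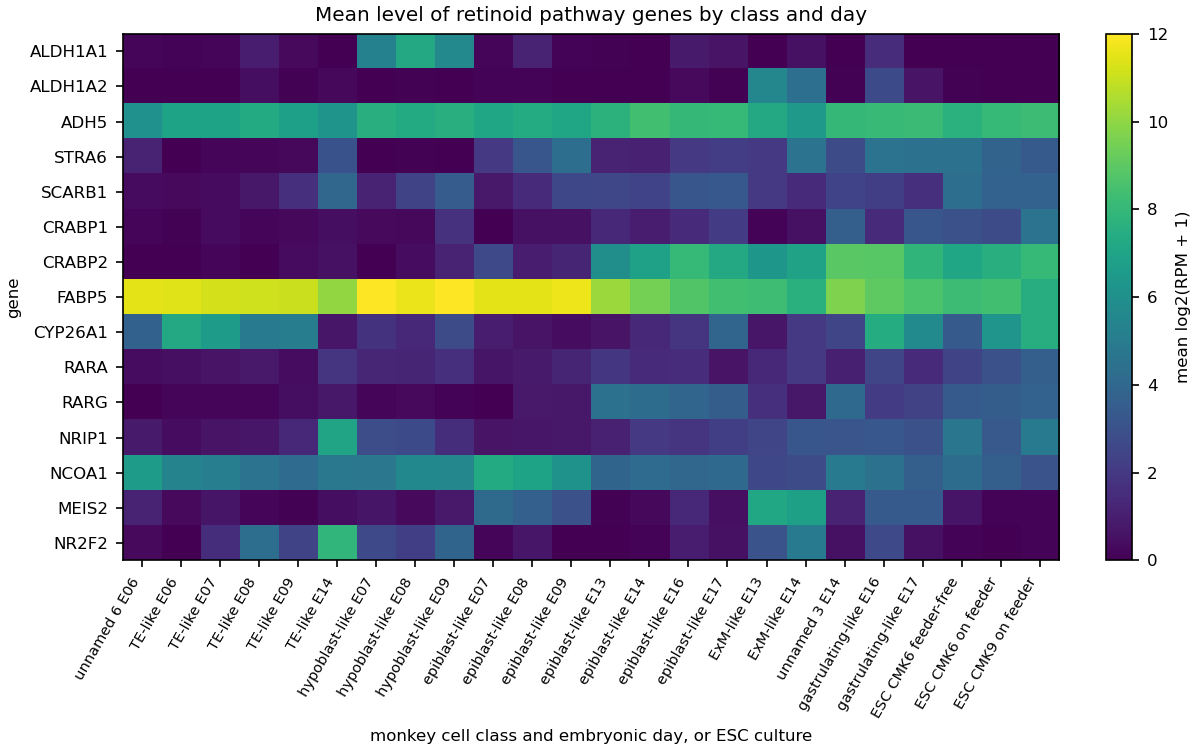
Mean log2(RPM + 1) of the members and of retinoid genes named in the text (rows) in the 24 monkey units (columns), as colour from 0 to 12. ALDH1A1 is bright in the hypoblast-like columns, ALDH1A2 in the extraembryonic-mesenchyme-like (ExM) columns, CRABP2 from E13 on outside the trophectoderm-like (TE) column, and CYP26A1 in early trophectoderm-like, gastrulating-like and ESC columns.

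Between early and late epiblast-like days, the time over which CRABP2 became abundant, 18 list genes were tested with limma and 8 were called: 4 rose and 4 fell. Among all 9897 genes tested, 37.5% were called, 13.3% higher and 24.2% lower, so a list share of 44.4% is near the background. RARG, a retinoic acid receptor, rose most: it averaged 0, 0.80 and 0.79 on the early days and 4.47, 4.26, 3.90 and 3.53 on the late days, a change of 3.51 (SE 0.39, limma adjusted p = 3.39e-05). ADH5, an alcohol dehydrogenase, rose by 0.84, and SCARB1, a lipid uptake receptor, by 1.23 with a limma adjusted p of 0.0494 that was lost in 6 of 14 alternatives. FABP5, the other carrier of retinoic acid, fell by 2.38 (SE 0.33): it averaged 11.5, 11.5 and 11.7 early and 10.2, 9.49, 8.72 and 8.35 late, while CRABP2, the carrier described above, was higher on the late days. MEIS2 fell by 3.05 and the receptor coactivator NCOA1 by 2.78. RARG passed the filter on low values only through the late days, and MEIS2 only through the early days. Their entry into the test was thus not independent of its outcome. Both calls remained with no filter. STRA6 fell by 1.56, a call lost in 8 of 14 alternatives (limma adjusted p from 0.008 to 0.317).

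All genes had a median change of -0.26 over these days and the list one of -0.23. Relative to the median of all genes, the changes were 3.77 for RARG, -2.12 for FABP5 and -2.79 for MEIS2. With quantile normalization that median was 0.00196, and 52.3% of calls were higher in place of 35.6%. The mean of RPM gave 49.1%. The 8 called genes kept their direction under each alternative in which they were tested.

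Between ESC cultures and the same late epiblast-like days, 21 list genes were tested with limma. Of these, 4 were called, all higher in ESCs, where 8.65% of all genes were called and 7.14% were called higher. None was lower (1 at an unadjusted p under 0.05), where 1.52% of all genes were. CYP26A1, the main enzyme that breaks down retinoic acid, was higher by 3.80 (SE 0.93, limma adjusted p = 0.0296). It averaged 3.40 (CMK6 feeder-free), 6.27 (CMK6 on feeders) and 7.47 (CMK9 on feeders) in ESCs and 0.62, 1.33, 1.79 and 3.92 on the late days, so the feeder-free culture overlaps with E17. NRIP1, a receptor corepressor, was higher by 2.56, STRA6 by 2.28 and the receptor RARA by 1.64. RARA passed the filter on low values only through the ESC cultures, and CYP26A1, NRIP1 and STRA6 through these and E17. Their entry into the test was thus not independent of its outcome. With no filter, no list gene was called higher. The call of CYP26A1 was lost in 8 of 13 alternatives (limma adjusted p from 0.0116 to 0.148) and that of RARA in 6 of 10 (0.0348 to 0.142), those of STRA6 in 3 of 13 and of NRIP1 in 2 of 13. These calls rested on few units: without CMK6 on feeders, or without CMK9, 1 list gene was called, and 146 or 148 of all genes in place of 855. Leaving out E14 gave 2 list genes and 288 of all genes, and leaving out E16 gave 2 list genes. Quantile normalization gave 2 list genes and 54.5% of all calls higher, against 82.5%. Over all genes tested the change had a median of 0.28, and relative to it CYP26A1 was 3.52 higher. The 2 comparisons share the late days, and 2 of the 3 cultures are of the same line.

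**Figure D4:**
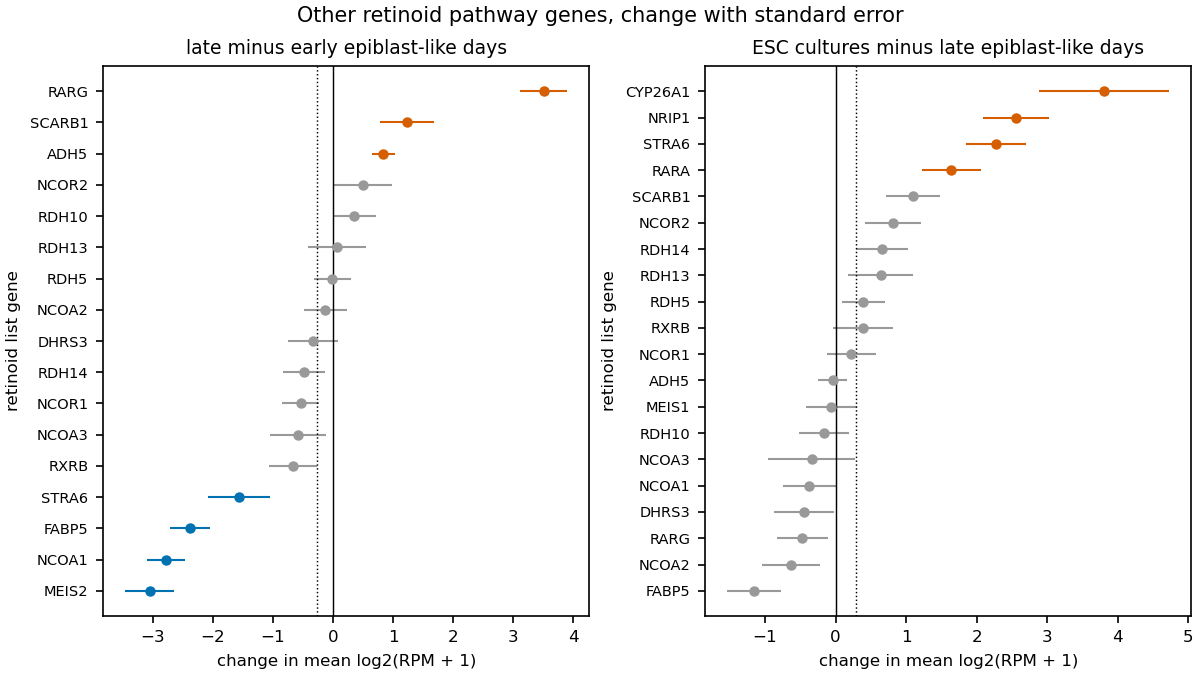
Change in mean log2(RPM + 1) of the tested retinoid list genes reported here (point) with its standard error from limma (bar), for late minus early epiblast-like days (left) and ESC cultures minus late days (right). Orange genes were called higher, blue genes lower, grey genes neither; the dotted line is the median of all genes. RARG heads the left panel, MEIS2, NCOA1 and FABP5 close it, and CYP26A1 heads the right panel.

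In mouse the 2 binding proteins were highest in different classes, and no class had a high level of Aldh1a1. Crabp2 was highest in the epiblast-like cells of E5.5, with a mean of 6.14 (16 of 16 cells with a read, 20.8 to 178 RPM). EpiLCs had 4.34, and ESCs in 2i and LIF 1.24. At E6.5 it was 2.98 in gastrulating-like cells (0.624 to 27.2 RPM) and 1.90 in an unnamed cluster with 4 of 8 epiblast markers that was led by Igkc and Ighm. Visceral-endoderm-like cells had 1.23 at E5.5 and 1.09 at E6.5. Crabp1, in contrast, was highest in the gastrulating-like cells of E6.5, with 4.11 (10 of 10 cells, 0.948 to 180 RPM). The unnamed cluster of E6.5 had 0.96 and visceral-endoderm-like cells 0.21 or less. Epiblast-like cells of E5.5 had 1.42, EpiLCs 1.99 and ESCs in 2i and LIF 1.27. With 1 sample per stage, these differences have no replicate check. In mouse the E5.5 epiblast-like cells had more Crabp2 and less Crabp1 than the E6.5 gastrulating-like cells, a contrast in which class and day both differ. In monkey, gastrulating-like minus epiblast-like cells of the same day gave 0.82 (E16) and 0.58 (E17) for CRABP2. For CRABP1 it gave -0.03 and 1.09. The stages are not matched between species, and the difference between species was not tested.

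Aldh1a1 had no read in the 25 cells of E5.5, including 9 visceral-endoderm-like cells, which allows a share of up to 33.3% in that class. At E6.5 it averaged 1.58 in gastrulating-like, 1.73 in unnamed and 1.22 in visceral-endoderm-like cells, with a highest cell of 15.4 RPM, and 20 of 24 cells had a read. The same 24 cells all had reads of the immunoglobulin genes Igkc (32.5 to 26053 RPM) and Ighm (14 to 14106 RPM), markers of B cells, while 2 and 0 of the other 47 mouse cells had any. Ptprc, a leukocyte marker, was found in 19 of the 24. Aldh1a7, a close relative of Aldh1a1 whose reads could be shared with it, had reads in 10 of these 24 cells and in none of the other 47. The part of blood cell RNA in the Aldh1a1 reads was not tested. Other retinoid genes, named here after their values were seen, were highest in the mouse visceral-endoderm-like cells: Cyp26a1 averaged 9.72 and 10.1 at E5.5 and E6.5, and Rbp4 8.21 and 7.86. In gastrulating-like cells of E6.5 Cyp26a1 averaged 5.57 (1.91 to 736 RPM) and Rbp4 1.21. Monkey hypoblast-like cells of E07, E08 and E09 had 1.75, 1.38 and 2.80 of CYP26A1, and at most 1.11 of RBP4 was found in any monkey unit. These hypoblast-like cells are from before implantation, and no later monkey unit was hypoblast-like, so the stages are unlike. Rdh10, which makes retinal, stood at 6.96 in the E5.5 and 2.51 in the E6.5 visceral-endoderm-like cells.

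**Figure D5:**
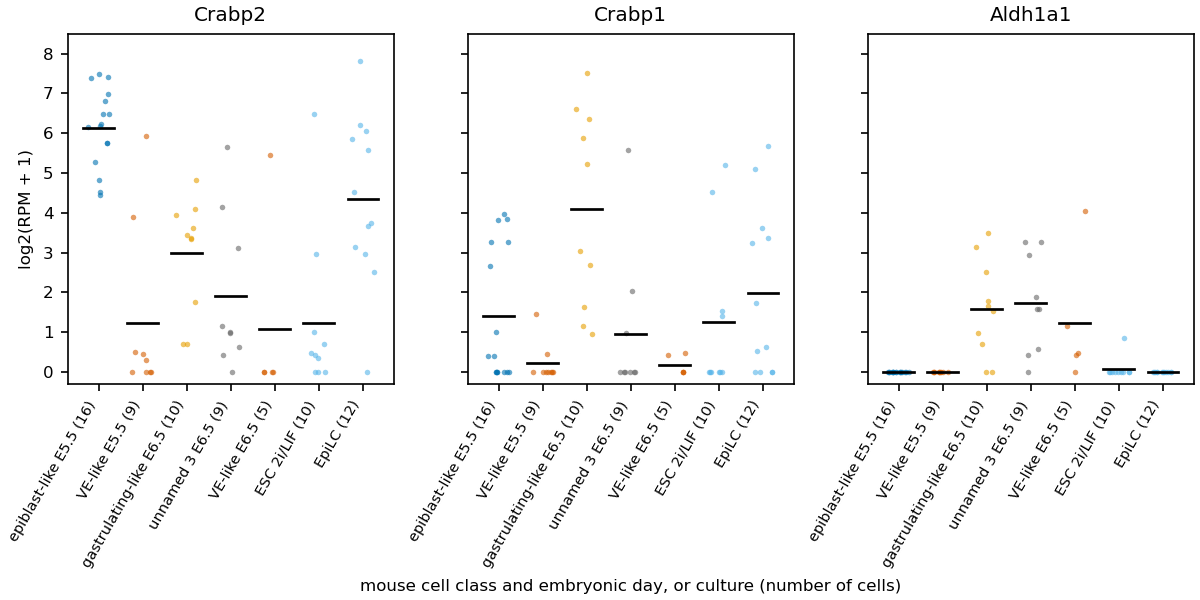
Crabp2, Crabp1 and Aldh1a1 in single mouse cells: each point is 1 cell, the black line is the mean, the shared y axis is log2(RPM + 1), and the x axis gives class and day or culture with the number of cells (VE, visceral endoderm). Crabp2 is highest at E5.5 in epiblast-like cells (mean 6.14), Crabp1 at E6.5 in gastrulating-like cells (mean 4.11), and Aldh1a1 has reads almost only at E6.5, in all 3 classes.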

How the data were processed

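The deposited SC3-seq tables give RPM (reads scaled to a common total by the authors) per gene and cell, per the file headers against macFas5 (monkey) and mm10 (mouse). The tools named by the submitters' processing notes are cutadapt 1.3, TopHat 1.4.1 and Cufflinks 2.2.0. How reads were assigned to genes, strand and molecular identifiers are not stated there. In the monkey table, 298 of 29095 rows had no values, and 3296 of 14758 LOC names took a symbol from RefSeq by gene ID. In the mouse table, 37 of 108 columns matched no sample here and were not used.

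Embryo cells were clustered with scanpy 1.11.5 (2000 variable genes without the retinoid genes, Leiden resolution 1) and named when more than 50% of a class's detected markers, and at least 3, were elevated. Doublets were not called. The highest correlation between any pair of cells was 0.948. Tested genes had a mean of 2 or more in 3 or more units. The tests used limma 3.58.1 in R 4.3.3 (lmFit, eBayes with trend, Benjamini-Hochberg over every tested gene, threshold 0.05, two-sided), after the script was tested on simulated data. Shares have 95% exact Clopper-Pearson intervals, a share of 0 a limit of 3 cells of the total, and both cover counting error only. The p-values measure how days or cultures vary, not how animals do.

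The members, lists, markers and tests were chosen with earlier results of these data known. Named genes were the members, list genes passing either test, the 5 genes most like each member, and list genes at least 2-fold apart between hypoblast-like and epiblast-like cells on every shared day. Alternatives were the mean RPM, a pseudocount of 10 in place of 1, quantile normalization, no filter, resolution 1.5, clustering with the retinoid genes, the E06 cluster counted as epiblast-like, and leaving out each day or culture. Of the genes this rule names, 2 are not reported here.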

Additional observations from a re-analysis of the deposited data

Results flagged for a closer look

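Levels over the 4 late epiblast-like days and over the cells of the 3 cultures with 8 to 10 cells were checked for a value that stands apart from the rest (10 groups with any spread). In 2 of them 1 value did, and about 1 in 20 groups is flagged by chance. Among the 10 mouse ESCs in 2i and LIF, 1 cell had a Crabp2 level of 6.49 on the log2(RPM + 1) scale, and its gap to the next cell was 0.542 of the whole range. In the same culture 1 cell had an Aldh1a1 level of 0.852 and the other 9 had none, so its gap was the whole range by construction.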

How the results depend on the processing

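The late minus early difference of CRABP1 was 1.90 with the mean of RPM and 0.39 with a pseudocount of 10, that of CRABP2 3.37 with a pseudocount of 10, and the ESC minus late difference of CRABP1 0.83 with a pseudocount of 10. The hypoblast-like minus epiblast-like difference of ALDH1A1 was 7.13 with the mean of RPM and 3.36 with a pseudocount of 10. None of these changed sign. For ESCs against late days, list genes called higher numbered 1 with the mean of RPM, 2 with quantile normalization and 0 with no filter, and all genes called 431, 440 and 113. Leaving out each day or culture in turn gave, for ESCs against late days, 1 to 3 list genes higher, 0 to 1 lower (1 without E17) and 146 to 656 genes called in all, and, for late against early days, 3 to 4 list genes higher and 2 to 5 lower (2 without E08 or E09). Finer clustering and clustering with the retinoid genes left both counts of all genes called as they were. The planned count test on reads recovered from RPM was not run, because some values of most columns gave no whole number of reads. No paired analysis was possible because the groups tested (early days, late days and cultures) share no replicate number in the labels; hypoblast-like and epiblast-like values were differenced within each day, with no test. Depth limits shares of low genes such as ALDH1A1 outside the hypoblast-like class. The values within title codes MS08, MS10, MS11 and MS13 and without title code MS09 were chosen after seeing the data. So were those in, and without, the 6 late cells of the finer hypoblast-like cluster.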
